A study of Mus musculus with 4 samples.

Results

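The 37 genes described here are Srf, which encodes serum response factor (SRF), its coactivators Mkl1 and Mkl2, and genes of actin filaments and contraction that are known or presumed to be driven by SRF. They were chosen by name, as the probes annotated with one of 37 gene symbols, and each gene was read from its brightest probe. The choice was made with earlier results of these data known. All 37 were on the arrays, out of 27656 gene names, through 72 probes, and 19 of them had 1 probe each. The cells were mouse embryonic fibroblasts (MEFs) from C57BL/6J mice, with the genotype Lats2-/- (labelled KO) or Lats2+/+ (labelled WT). They were cultured in DMEM with serum and sampled either at low density, after 48 hours while subconfluent, or at high density, after 3 to 5 days. Time in culture thus changed together with density, and the 2 cannot be told apart. Each genotype was hybridised on 2 arrays of 2 colours each, low against high density, with the dyes exchanged on the second array (a dye swap). The labels name neither the embryos nor the number of cultures, so the pair was taken as a technical repeat of 1 sample per genotype and density, and no p-value is given.

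SRF is a transcription factor that binds a short element called the CArG box. Its coactivators, the myocardin-related factors encoded by Mkl1 and Mkl2, are bound by monomeric actin and kept out of the nucleus. When actin is built into filaments, the coactivators are released and SRF target genes are switched on, many of which encode actins and the proteins that bundle, decorate or pull on them. In fibroblasts this programme is known for stress fibres and for the contractile state of the myofibroblast. The kinase encoded by Lats2 belongs to the Hippo pathway, whose activity in crowded cells holds back YAP and TAZ, and the comparison of densities addresses the response of the cells to contact with each other.

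Because SRF acts through the CArG box, the proximal promoters of the members (250 bases before to 50 bases after the annotated start, RefSeq, assembly GRCm38.p6) were searched for it, as 2 C, 6 bases that are A or T, and 2 G, a pattern whose reverse complement is of the same form, so that both strands were covered. Promoters were present for 32 of the 37 members, and 8 of these 32 (25%) held the box, against 1.81% of the 27025 genes with a promoter in the same table. The runs below are the boxes of these 8 genes in capitals, each with flanking bases, read 5′ to 3′ on the strand of the gene.
Srf (chr17:46556235-46556244, minus strand, ending 73 bases before the start): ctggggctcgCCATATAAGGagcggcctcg
Srf (chr17:46556215-46556224, minus strand, 53 bases before): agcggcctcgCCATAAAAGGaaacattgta
Acta1 (chr8:123894839-123894848, minus strand, 64 bases before): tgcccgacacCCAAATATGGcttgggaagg
Actc1 (chr2:114052913-114052922, minus strand, 38 bases before): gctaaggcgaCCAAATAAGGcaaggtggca
Actg1 (chr11:120348576-120348585, minus strand, 81 bases before): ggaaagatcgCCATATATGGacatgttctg
Cnn2 (chr10:79988544-79988553, plus strand, 47 bases before): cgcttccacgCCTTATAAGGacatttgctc
Myl9 (chr2:156775303-156775312, plus strand, 152 bases before): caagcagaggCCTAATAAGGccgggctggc
Fhl1 (chrX:56779581-56779590, plus strand, 93 bases before): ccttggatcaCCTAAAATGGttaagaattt
Fhl2 (chr1:43196848-43196857, minus strand, 87 bases before): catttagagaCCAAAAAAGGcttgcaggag
Fhl2, another start (chr1:43163983-43163992, minus strand, 22 bases before): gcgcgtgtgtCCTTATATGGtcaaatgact

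A match is a description of these letters and not a shown binding site. The same promoters were searched for GGAATG or its reverse complement CATTCC, the motif of the TEAD factors through which YAP and TAZ act. It was present in 13 of the 32 members (40.6%) and in 16.6% of all genes, and overlapped none of the boxes shown.

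Before the comparisons, the labels were checked. Of the 4 probes for Lats2, 3 were brighter in labelled KO than in labelled WT, by log2 ratios of 0.91 to 1.49 over both densities, and 1 was dimmer, by -0.63 at low and -1.26 at high density. Genotype names therefore refer to labels only. Both arrays labelled WT shared 1 slide whereas the arrays labelled KO came from 2 other slides, so slide and genotype cannot be told apart. Of the fibroblast markers, 11 of 11 were well above background in all 8 channels. Among other cell types, 0 of 9 skeletal muscle, 0 of 6 endothelial and 0 of 3 epithelial markers were above background in every channel. The same held for 3 of 9 smooth muscle or pericyte markers (Cspg4, Notch3 and Mcam), 1 of 5 cardiac markers (Tnnt2) and 2 of 5 macrophage markers (Cd68 and Cd14). Other markers were above background in part of the channels, such as Tnnt3 (skeletal muscle) and Csf1r (macrophage) in 6 each. Kdr (endothelial) and Krt18 (epithelial) were above it in 2 each. In no channel above it were 5 skeletal muscle, 5 endothelial and 2 epithelial markers.

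Members are said to rise or fall, or to be higher or lower, where the arrays of a pair (or the dyes, between genotypes) shared a sign and averaged 2-fold or more, a log2 ratio of 1. Tested genes are those whose probe stood well above background in both measurements of at least 1 of the conditions compared, and, for the difference of density effects, in both genotypes. The technical error, the SD across genes of an array's deviation from the mean of its pair, was 0.10 for labelled WT and 0.14 for labelled KO on the log2 scale, and it covers no variation between cultures. Mkl2, the second coactivator, and Des, the muscle intermediate filament desmin, were not well above background in any channel and were not tested in any comparison.

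The first question was how the contractile genes differed between dense and sparse cells labelled WT. Most of them were lower at high density. Of 34 members tested, 22 fell and 1 rose, while among all 14874 genes tested 6.09% fell, 9.41% rose and 15.5% changed in either direction. The median of the members was -1.32 against 0.06 for all genes, and 31 of the 34 were below 0. In such bulk RNA, fewer cells of a contractile type and less RNA per cell cannot be told apart.

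In labelled KO cells the same comparison gave a smaller shift. Of 35 members tested, 9 fell and 2 rose, against 3.87% lower, 7.14% higher and 11.0% in either direction among 15433 genes. The median was -0.47 against 0.06 for all genes, with 29 of the 35 below 0. Cald1 counts among the 9 although its arrays, -0.18 and -1.93, lay far apart. The size of the shift in labelled KO depended on the normalization. With median centring in place of loess, which does not correct for signal strength, the median was -1.02 in labelled KO and -1.58 in labelled WT. All genes then split into 5.18% higher and 6.93% lower in labelled KO, and into 7.58% higher and 8.54% lower in labelled WT.

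**Figure D1:**
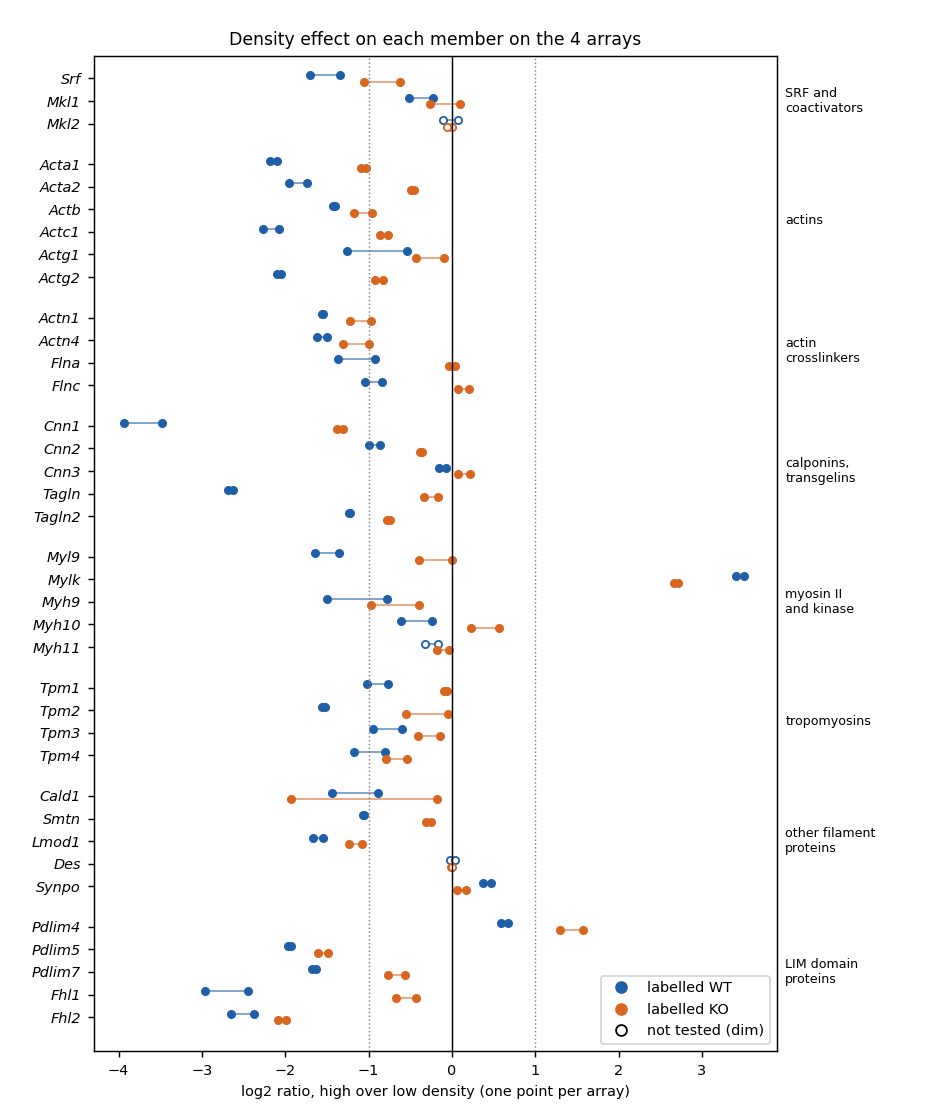
The log2 ratio of high over low density (horizontal axis) of each of the 37 members, with 1 point per array, blue for labelled WT and orange for labelled KO, lines joining the arrays of a pair and dotted lines at the 2-fold limits. Open points mark members not tested. Most blue points lie left of the orange ones, and Mylk stands alone at the right.

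The transcription factor and its coactivator were described first. Srf gave log2 ratios of -1.34 and -1.70 on the arrays labelled WT, a 2.87-fold fall, and of -0.62 and -1.05 on those labelled KO. Its mean in labelled KO, -0.83, did not reach 2-fold. Mkl1, the coactivator that senses monomeric actin, gave means of -0.37 and -0.08 in labelled WT and labelled KO and did not reach 2-fold in any comparison.

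Of the 6 actins, 5 fell in labelled WT and 2 in labelled KO. Acta1, the skeletal muscle alpha actin, gave -2.10 and -2.18 in labelled WT against -1.03 and -1.09 in labelled KO. Actc1, the cardiac alpha actin, gave -2.07 and -2.26 against -0.76 and -0.87. Actg2, the enteric smooth muscle gamma actin, gave -2.05 and -2.10 against -0.92 and -0.83. For all 6 actins every labelled WT value of the brightest probe lay below every labelled KO value. How many of all genes did so was not counted. Acta2, smooth muscle alpha actin and the usual marker of myofibroblasts, gave -1.74 and -1.95 in labelled WT and -0.46 and -0.49 in labelled KO. Actb, cytoplasmic beta actin, gave -1.40 and -1.43 against -0.96 and -1.18, and without replicate 2 its labelled KO value was -0.96, short of 2-fold. Actg1, cytoplasmic gamma actin, did not reach 2-fold at its brightest probe, with a mean of -0.89 in labelled WT and -0.26 in labelled KO, whereas its second probe gave -1.29 and -0.53. The actins are near-identical in sequence and a probe may read more than 1 of them, so the values of single actin genes are uncertain. The brightest Actb probe is annotated on the X chromosome (147774990 to 147775049, mm8) and not on chromosome 5. The Actb probe on chromosome 5 gave -1.42 and -1.36.

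Among the proteins that cross-link actin filaments, 3 of 4 fell in labelled WT. Actn1, an alpha actinin of stress fibres and adhesions, gave -1.55 and -1.56 in labelled WT and -0.98 and -1.22 in labelled KO. Actn4, the related alpha actinin, gave -1.62 and -1.50 against -1.31 and -0.99. Both fell in labelled KO too, though Actn1 was at -0.98 without replicate 2 and Actn4 at -0.99 without replicate 1. The filamins behaved otherwise. Flna, the main filamin of non-muscle cells, gave -0.92 and -1.37 in labelled WT but 0.03 and -0.03 in labelled KO, and without replicate 2 its labelled WT value was -0.92. Flnc, the muscle filamin, gave -0.83 and -1.05 against 0.21 and 0.07.

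The calponins and transgelins, small proteins that decorate actin filaments, spanned the widest range of falls in labelled WT. Cnn1, the smooth muscle calponin, gave -3.48 and -3.94 in labelled WT, a 13.1-fold fall that ranked 5 from the lowest of 14874 genes. It gave -1.38 and -1.31 in labelled KO, a 2.54-fold fall. Tagln (SM22 alpha), a standard SRF target, gave -2.63 and -2.69 in labelled WT, a 6.33-fold fall, but only -0.34 and -0.16 in labelled KO. Its second probe gave -2.39 and -0.62. Tagln2 gave -1.22 and -1.23 in labelled WT and -0.78 and -0.75 in labelled KO. Cnn2 and Cnn3, the calponins of non-muscle cells, did not reach 2-fold, with means of -0.93 and -0.11 in labelled WT and of -0.37 and 0.15 in labelled KO.

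Within myosin II, the regulatory light chain and its kinase went opposite ways in labelled WT. Myl9, the light chain whose phosphorylation drives contraction, gave -1.36 and -1.65 in labelled WT and -0.39 and 0.01 in labelled KO. Mylk, the kinase that phosphorylates it, was the member that rose most in both genotypes. It gave 3.50 and 3.41 in labelled WT, an 11.0-fold rise that ranked 53 from the highest, and 2.71 and 2.66 in labelled KO, a 6.44-fold rise. A second bright Mylk probe gave 3.95 and 2.84, and another Mylk probe was not well above background in any channel. Myh9, the heavy chain of non-muscle myosin IIA, gave -0.77 and -1.50 in labelled WT and -0.40 and -0.97 in labelled KO. Its fall in labelled WT rested on replicate 2, without which it was -0.77. Myh10, the heavy chain of non-muscle myosin IIB, gave -0.23 and -0.62 against 0.57 and 0.23. Myh11, the smooth muscle heavy chain, was dim, being well above background in 5 of the 8 channels, and was not tested for density in labelled WT.

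Of the 4 tropomyosins, which wrap along the filament, Tpm2 fell in labelled WT, with -1.56 and -1.52, and gave -0.55 and -0.05 in labelled KO. Tpm1, Tpm3 and Tpm4 did not reach 2-fold at their brightest probes, with means between -0.99 and -0.77 in labelled WT and between -0.66 and -0.08 in labelled KO. The other 2 Tpm1 probes reached it in labelled WT, at -1.16 and -1.24.

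Among the other filament proteins, Lmod1, a leiomodin that nucleates actin in smooth muscle, gave -1.55 and -1.66 in labelled WT and -1.08 and -1.24 in labelled KO. Smtn (smoothelin) gave -1.06 and -1.06 against -0.32 and -0.26. Cald1 (caldesmon), which binds actin and restrains myosin, gave -0.89 and -1.43 in labelled WT, so that without replicate 2 it was -0.89 there. In labelled KO it was -0.18 without replicate 2, and a second Cald1 probe gave -1.38 and -0.51. Synpo (synaptopodin) did not reach 2-fold, at 0.42 and 0.11.

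Of the LIM domain proteins, 4 of 5 fell in labelled WT. Fhl1, a scaffold of muscle and stress fibres, gave -2.44 and -2.96 in labelled WT, a 6.51-fold fall, and -0.43 and -0.67 in labelled KO. Its relative Fhl2, an SRF target that also binds SRF, fell in both, with -2.65 and -2.37 against -2.08 and -2.00. A dimmer Fhl2 probe, tested for density in labelled KO only, gave -0.62 there. Pdlim5 gave -1.93 and -1.97 against -1.48 and -1.61. Pdlim7 gave -1.63 and -1.68 against -0.56 and -0.77. Pdlim4, another PDZ and LIM protein of stress fibres, was the exception, with 0.59 and 0.68 in labelled WT and 1.30 and 1.57 in labelled KO, where it rose. A second Pdlim4 probe gave 0.70 and 0.31. The first Pdlim4 probe was weak in labelled KO at low density, at normalised log2 intensities of 6.64 and 6.32. Its labelled KO density value ran from 0.87 to 2.61 over the alternatives in processing and probe choice.

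The density effect was set side by side between genotypes, to ask whether it was the same size in both. The difference, labelled KO minus labelled WT, was above 0 for 32 of 34 members, with a median of 0.66 against 0.02 for all genes and a technical error of 0.12. It reached 2-fold upwards for 11 members and downwards for 0, against 4.56%, 4.97% and, in either direction, 9.53% of 14171 genes. Both effects were below 0 for 28 members and above 0 for 3, and the labelled KO effect was the closer to 0 for 32 of the 34, the exceptions being Cnn3 and Pdlim4. These patterns were not counted over all genes, of which fewer changed in labelled KO (11.0%) than in labelled WT (15.5%). They are therefore no result about the members alone. Among the members the largest differences were those of Tagln (2.41), Cnn1 (2.37) and Fhl1 (2.15). The other 8 were Acta2 (1.37), Actc1 (1.35), Myl9 (1.31), Tpm2 (1.24), Actg2 (1.20), Flna (1.14), Acta1 (1.08) and Flnc (1.08). Tpm2 was at 0.99 without replicate 2 of labelled KO, and Flna and Flnc were at 0.92 and 0.97 without replicate 2 of labelled WT. With median centring 5 members reached 2-fold, 4 of the 11 among them, against 4.14% of all genes upwards and 10.2% in either direction, and the median was 0.41 with 29 of 34 above 0. These counts have no replicate check, and whether other cultures would give the same difference was not tested.

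**Figure D2:**
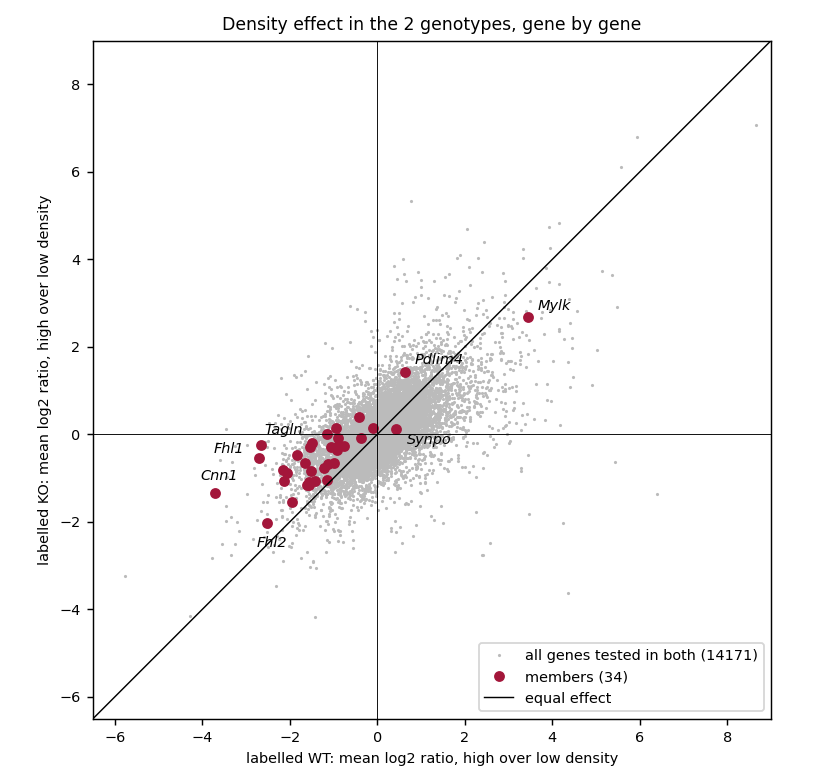
Mean log2 ratio of high over low density in labelled WT (horizontal) and labelled KO (vertical), with grey points for the 14171 genes tested in both and red points for the 34 members. The diagonal marks equal effects. Most members lie below 0 on the horizontal axis and above the diagonal, with Tagln and Cnn1 far from it.

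The members with a CArG box in the searched window had a median below 0, and so had those without it. The 8 with a box had a median density effect of -1.83 in labelled WT, ranging from -2.70 to -0.89, and 6 of them fell. The 22 tested members without a box had a median of -1.14, and 13 fell and 1 rose. In labelled KO the medians were -0.68 and -0.39. Cnn1, with the steepest fall in labelled WT, had no box in its window. Fhl2, with the steepest fall in labelled KO (-2.04), had 2, at different starts. No promoter was given for Tagln, Actb, Actg2, Myh11 or Synpo. Members with and without the TEAD motif had medians of -1.15 and -1.51 in labelled WT. The ranges of these groups overlapped widely.

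Genotypes were then compared within each density. At low density 10 of 35 tested members were lower in cells labelled KO and 1, Cald1, was higher, against 8.36% lower, 7.33% higher and 15.7% in either direction of 15256 genes. The median was -0.55 against 0.03 for all genes, and 28 of the 35 were below 0. At high density the members were spread around 0. There 6 of 35 were higher and 4 lower, against 6.75%, 7.78% and 14.5% of 15620 genes, with a median of 0.12 against 0.03. With median centring that median was -0.05, with 16 above and 19 below 0, so it has no settled sign. The technical error was 0.11 at low and 0.14 at high density.

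Cnn1 and Pdlim4 differed most between genotypes, and at both densities. Cnn1 gave log2 ratios of labelled KO over labelled WT of -5.58 and -5.35 in the 2 dyes at low density and of -3.49 and -2.72 at high density. Pdlim4 gave -5.62 and -5.94 at low and -4.92 and -5.05 at high density, but its second probe gave means of -0.67 and -1.05. Over the alternatives in processing and probe choice the Pdlim4 mean ran from -7.44 to -3.23 at low density. At high density it ran from -5.50 to -3.02. Cnn1 had 1 probe. Mylk was lower in labelled KO at both densities, at -1.25 and -1.41 and then -2.04 and -2.15, as was Lmod1, at -1.83 and -1.66 and then -1.37 and -1.23.

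Fhl1, Myl9, Smtn, Tpm2, Tagln2 and Pdlim7 were lower in labelled KO at low density and did not reach 2-fold at high density. Fhl1 gave -2.52 and -2.40 at low density and -0.50 and -0.11 at high density. Myl9 gave -1.64 and -1.62, then -0.68 and 0.03. Smtn gave -1.57 and -1.60, then -0.82 and -0.80. For these 3 the difference at high density was the smaller in each dye. Tpm2 gave -1.09 and -1.15, then -0.08 and 0.32. Tagln2 gave -1.02 and -1.09, then -0.57 and -0.60. Pdlim7, at -1.05 and -0.96 and then 0.02 and -0.05, was at -0.96 without replicate 1 of either genotype. These last 3 lay close to the limit at low density, and each fell short of it with median centring and without Aquantile, the scaling between arrays. Pdlim7 kept its call in 4 of 11 alternatives.

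Tagln, Actc1, Acta1, Myh10 and Fhl2 were higher in labelled KO at high density and did not reach 2-fold at low density. Tagln gave -0.80 and -0.49 at low density and 1.49 and 2.03 at high density. Actc1 gave 0.12 and -0.10, then 1.43 and 1.30. Acta1 gave -0.15 and -0.01, then 0.92 and 1.08, and was at 0.92 without replicate 2 of either genotype. Acta2 gave -0.54 and -0.21, then 0.74 and 1.26, with a mean of 0.999 just short of the limit. Actg2 did not reach it either, at -0.59 and -0.71, then 0.54 and 0.56. Myh10 gave 0.37 and 0.44, then 1.17 and 1.29. Fhl2 gave 0.51 and 0.54, then 1.08 and 0.92, so that it was at 0.92 without replicate 1. At high density Acta1 and Fhl2 fell short of the limit with median centring, and Fhl2 also with an offset of 0 in the background correction. Cald1 was higher at both densities, at 1.10 and 1.18 and then 1.81 and 0.69, and was at 0.69 at high density without replicate 1. At high density Myh11 was well above background in both channels labelled KO and in neither channel labelled WT. Its ratio of labelled KO over labelled WT was at least 1.22-fold, short of the limit, with the signal of the dim side raised, on each array, to the dimmest signal that still counted as above background.

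**Figure D3:**
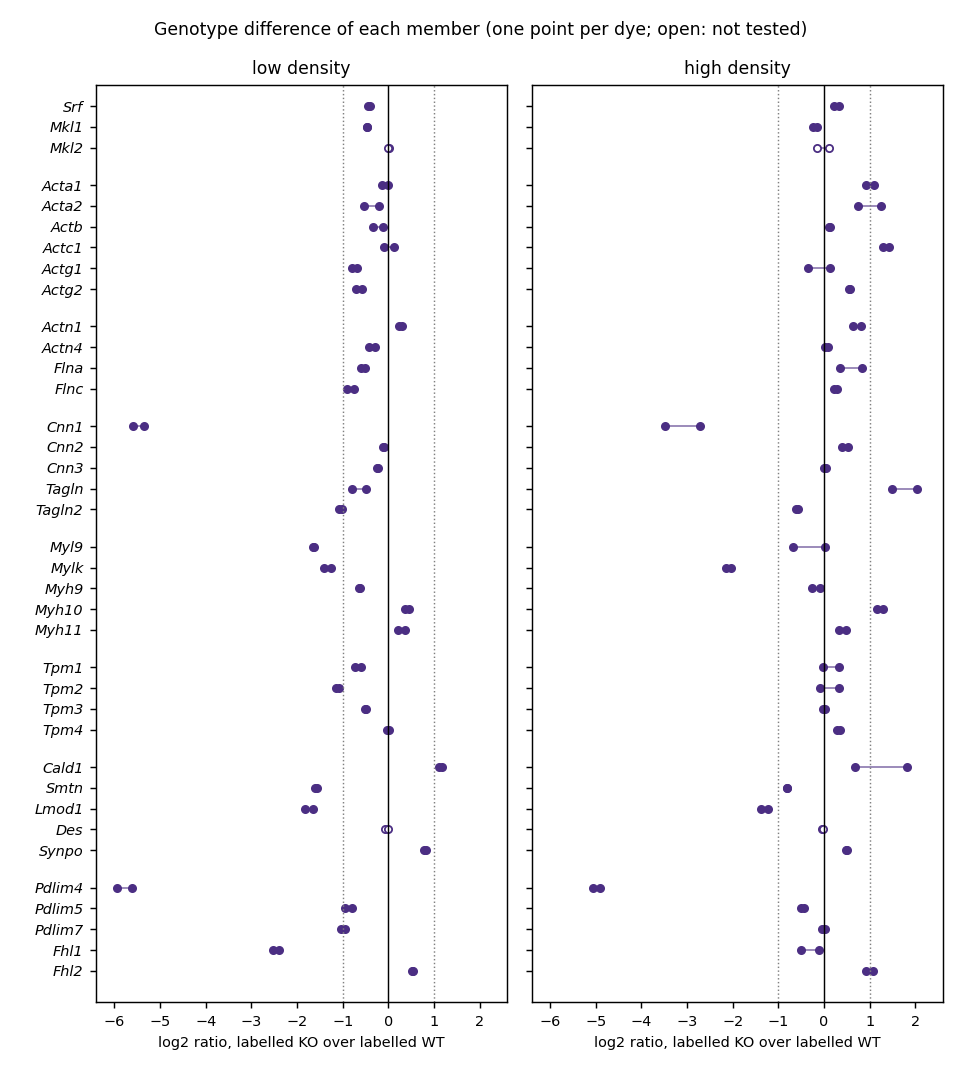
Log2 ratio of labelled KO over labelled WT for each member at low density (left) and high density (right), with 1 point per dye, a line joining the dyes, dotted lines at the 2-fold limits and open points for members not tested. Most points lie left of 0 at low density and on both sides of 0 at high density, with Cnn1 and Pdlim4 far to the left in both.

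The single channels were then compared, gene by gene. The normalised log2 intensity of Tagln in labelled WT was 17.45 and 17.00 at low density and 14.82 and 14.31 at high density, while in labelled KO it was 16.65 and 16.51, then 16.31 and 16.34. The labelled WT values of Tagln thus lay above the labelled KO values in sparse cells and below them in dense cells, with no overlap in either case. Fhl1 was at 16.89 and 16.74 in sparse labelled WT cells and between 13.67 and 14.44 in the other 6 channels. Pdlim4 was at 12.26 to 12.94 in all labelled WT channels and at 6.32 to 7.94 in all labelled KO channels.

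**Figure D4:**
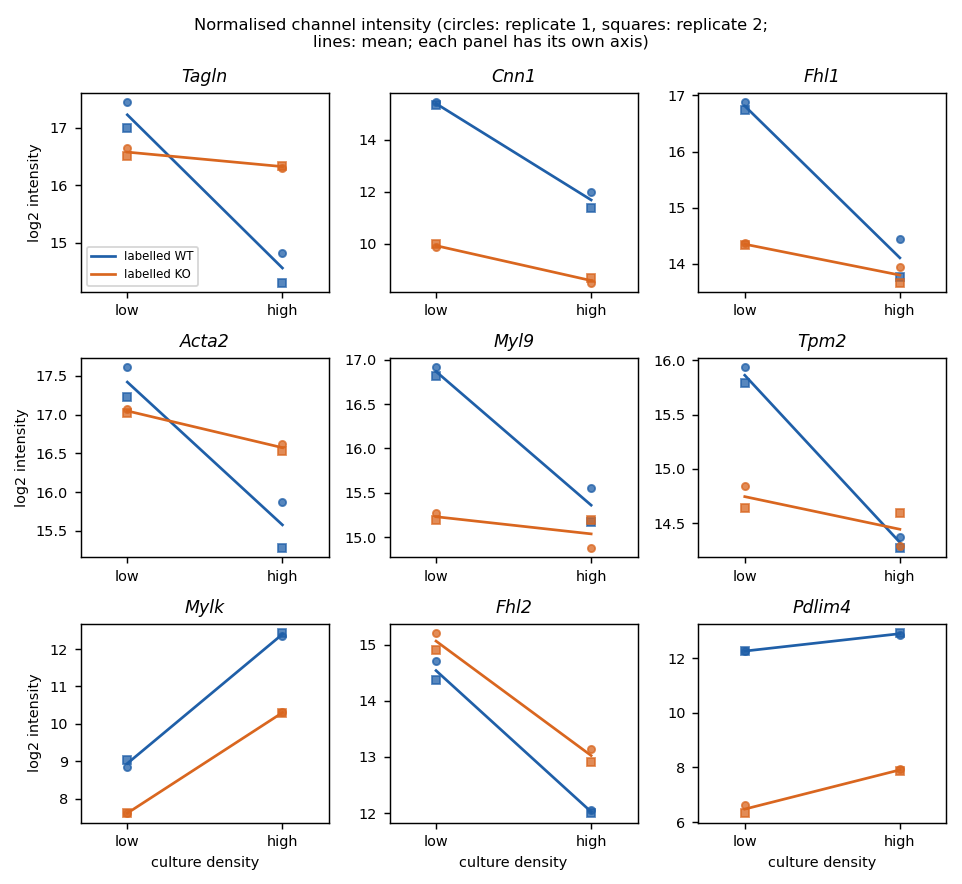
Normalised log2 channel intensity (vertical, own axis in each panel) of 9 members at low and high density, with circles for replicate 1, squares for replicate 2 and lines through the means, blue for labelled WT and orange for labelled KO. For Tagln, Acta2 and Tpm2 the lines cross, for Fhl1 and Myl9 they come close at high density, and for Cnn1, Mylk and Pdlim4 the labelled WT line stays above.

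Where a member had several tested probes, some of them disagreed. Acta2 had 5 probes, all lower at high density in labelled WT, from -3.03 to -1.26. In labelled KO 4 of them were below 0, down to -2.17, and 1 was at 0.82. At low density the Acta2 probes ranged from -1.35 to 0.24 for labelled KO over labelled WT. A Tpm1 probe gave genotype ratios of -2.68 and -1.45 at low and high density where the brightest gave -0.66 and 0.16. The Actb probe on chromosome 5 gave 0.76 at low density, against -0.22. Another Flna probe gave a difference of density effects of 0.05 against 1.14, and its genotype ratio at high density was -0.10 against 0.59. Of the other bright Flnc probes, 1 gave -0.20 in labelled KO against 0.14, and 2 gave -0.39 and -0.21 for the genotype ratio at high density against 0.25. A dimmer Flnc probe gave -0.04 in labelled KO. Its genotype ratio was 0.47 at low density, against -0.83, and 0.58 at high density. The second bright Myh10 probe gave -1.24 in labelled WT against -0.42, -0.18 in labelled KO against 0.40, and -0.01 at low density against 0.40. Of 5 Pdlim5 probes 4 reached 2-fold in labelled WT, with a range of -1.95 to -0.79, and 2 in labelled KO, with a range of -1.54 to -0.56. Of 4 Pdlim7 probes 3 reached it in labelled WT, with a range of -1.72 to -0.78. For Pdlim4 the second probe gave a difference of -0.38 against 0.80. For Mkl1 and Synpo that difference was -0.09 against 0.29 and 0.08 against -0.31. For Actg1, Pdlim7 and Tpm3 the genotype ratio at high density changed sign between probes, within -0.80 to 0.14.

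Other lists of genes tied to SRF had medians of the density effect closer to 0 than the members in labelled WT. Of other SRF targets and actin-associated genes, 10 of 28 fell and 3 rose in labelled WT, with a median of -0.68, and 7 of 27 fell in labelled KO, with a median of -0.59. Among the largest were Itga5, the fibronectin receptor subunit (-2.18), Csrp2 (2.10) and Nexn (-1.62) in labelled WT, and Ldb3 (-1.99), Msn (-1.59), Zyx (-1.30) and Csrp1 (-1.21) in labelled KO. The median difference of density effects in this list was 0.10. Among all genes 6.09% fell and 9.41% rose in labelled WT, and 3.87% fell and 7.14% rose in labelled KO.

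The immediate early SRF targets, which respond largely through other cofactors, had medians of -0.07 in labelled WT and -0.11 in labelled KO, with 3 of 8 lower and 0 higher in labelled WT and 2 of 9 lower and 2 higher in labelled KO. Dusp1, a phosphatase of the MAP kinases, fell in both (-1.83 and -2.13), and so did Junb (-1.0019 and -1.07). Egr2 fell in labelled WT (-1.03) and rose in labelled KO (1.98), where Egr1 rose too (1.76). Between genotypes this list had medians of -1.26 at low density, with 5 of 9 lower and 1 higher in labelled KO, and -0.82 at high density, with 4 of 8 lower and 0 higher. Among all genes 8.36% were lower and 7.33% higher at low density, and 7.78% lower and 6.75% higher at high density. Of factors that act with SRF, 1 of 8 tested rose in labelled WT, Gata6 (1.06), and 0 of 6 changed in labelled KO.

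Markers of other contractile cells moved with density and genotype as well. Mcam and Cspg4, markers of smooth muscle or pericytes, gave -3.20 and -1.89 in labelled WT and -2.00 and -1.48 in labelled KO, whereas Notch3 gave 2.92 and 0.18. Tnnt2, the cardiac troponin T, gave -3.24 and -2.51. Between genotypes Tnnt2 was lower in labelled KO at low density (-1.50) and was at -0.76 at high density. The cardiac markers Nppa and Myl7 were well above background in 5 and 2 of the 8 channels, and no ratio is given for them. With them, 3 of 3 tested cardiac markers fell in labelled WT, against 6.09% of all genes. At low density 3 of 3 were lower in labelled KO, against 8.36% of all genes. Of the 5 smooth muscle or pericyte markers tested in each comparison, 1 was higher and 1 lower in labelled KO at low density, and 0 were higher and 2 lower at high density. Notch3 was higher at low density (1.68) and lower at high density (-1.05). Npnt (nephronectin) was lower at both, at least 10.4-fold at low density, where it was not well above background in labelled KO, and by a log2 ratio of -2.45 at high density. Of the 11 fibroblast markers, 1 was higher and 2 were lower in labelled KO at low density, and 4 were higher and 2 lower at high density. The receptor Pdgfra was higher at both (4.46 and 3.10) and the collagen receptor Ddr2 was lower at both (-1.10 and -1.57), while Fn1 (fibronectin) was lower in sparse cells (-1.30) and higher in dense ones (1.33). The summed background-subtracted signal of the 9 smooth muscle or pericyte markers, of which Kcnj8 and Abcc9 were not well above background in any channel, was 8164 to 22311 at low and 2378 to 6036 at high density in labelled WT, and 6251 to 14564 and 1716 to 5279 in labelled KO, where the range spans the dyes. For the 5 cardiac markers, of which Myh6 was not well above background in any channel, it was 1450 to 3691 and 172 to 322 in labelled WT, and 601 to 1160 and 133 to 242 in labelled KO. Their part in the results for the members was not tested.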

How the data were processed

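Expression was measured in 2 genotypes of MEFs on 4 Agilent arrays with 2 colours each. Per the labels, the authors extracted the scans with Agilent Feature Extraction (10.5.1.1). The deposited scanner files hold spot intensity and local background per dye, and the deposited series matrix holds the log10 ratio made by that software, turned to high over low density. The log10 ratio of the scanner files was used only to check that matrix, whose values served as an alternative. With R 4.3.3 and limma 3.58.1, background was corrected by normexp (offset 50), which shrinks ratios of dim probes. Arrays were normalized by loess, and for genotype contrasts also between arrays by Aquantile, the genotypes being compared within the same dye. Ratios were averaged over the dye swap. Control spots and outlier spots were left out, which removed 107 to 224 features per array. Per channel, 52.8% to 67.7% of 43379 features stood well above background and 0 were saturated. The highest shares, 67.7% and 62.6%, were those of replicate 1 of labelled KO. The channels of the other arrays lay at 52.8% to 56.2%. Precision is limited by the number of arrays. The members and lists were chosen with earlier results of these data known. Members changed by 2-fold or more in any comparison are given with the density ratio of every array, and per dye where the genotypes differed by 2-fold, the others by counts and means, and at most 4 changed genes per list and density comparison are named. Some planned list results are not reported here. Positions of probes come from the annotation of the array (mm8). Of the lists, Filip1l, Hop, Lyz2 and Epcam were not found on the arrays. The 2-fold rule was run on simulated data as a self-test, and no result given here rests on it. Alternatives in background correction, normalization, filtering, probe choice, threshold and arrays used were run.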

Additional observations from a re-analysis of the deposited data

Results flagged for a closer look

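For 3 members both arrays labelled WT lay below 0 and both arrays labelled KO above 0 in the density comparison. How many of all genes did so was not counted. The labelled WT mean of Cnn3, -0.11, was near the technical error of 0.10. The difference of the density effects, labelled KO minus labelled WT, was 0.26 for Cnn3, 0.82 for Myh10 and 1.08 for Flnc on the log2 scale. With 1 sample per genotype and density this difference was not tested. The second bright probe of Myh10 and 1 other bright probe of Flnc were below 0 in both genotypes.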

How the results depend on the processing

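Medians and counts of changed members were recomputed under each alternative, and all 647 recomputed values of the 66 single-member calls kept their sign, while 44 of them no longer met the 2-fold rule. At low density between genotypes, Tagln2, Tpm2 and Pdlim7 did not meet it with median centring or without Aquantile. With median centring in place of loess the median of the members was -1.58 for density in labelled WT, -1.02 in labelled KO, 0.41 for the difference, with 5 members changed, -0.40 for the genotype difference at low density and -0.046, of the other sign, at high density. Without a filter on dim probes the labelled WT median was -1.16, and with the mean of tested probes the low density genotype median was -0.42. Without Aquantile the members' genotype difference had a median of -0.33 in sparse and 0.41 in dense cells, with all genes at 0.27 at both, so that relative to all genes the members lay at -0.60 and 0.14. Genes higher and lower were then 11.7% and 5.24% at low, and 10.8% and 5.44% at high density. At 1.4-fold 19 members changed in labelled KO against 36.7% of all genes, 21 in the difference against 31.5%, 22 at low against 42.6% and 17 at high density between genotypes against 39.4%. Leaving out 1 array at a time gave, for labelled WT, medians of -1.47 to -1.28 and 20 to 27 members changed, and for labelled KO -0.49 to -0.41 and 8 to 11. It gave 0.60 to 0.79 and 9 to 13 for the difference, -0.59 to -0.49 and 10 to 11 at low density, and 0.04 to 0.21 and 9 to 9 at high density. The other medians of the members moved by less than the technical error and the other counts of members by less than 1.5 times. With Agilent processed signals the share of all genes changed was 26.6% in labelled WT, 20.8% in labelled KO, 16.0% for the difference, 27.5% at low and 25.3% at high density. With Agilent processed signals 10 of 35 members changed at low density, near the share of all genes, 9 of them lower against 13.5% of all genes. With a normexp offset of 0 the shares of all genes changed, in the same order, were 23.0%, 17.3%, 13.6%, 23.6% and 21.8%, and without the filter on dim probes, which tested 27656 genes, they were 8.33%, 6.15%, 5.66%, 8.74% and 8.29%. No paired analysis was possible because the labels give no replicate numbers that tie the arrays of the genotypes together and each genotype and density had 1 sample. Dim probes limit Mkl2, Des and Myh11.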
